A study of Mus musculus with 5 samples.

Results

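Of the 3885 merged regions of anti-ACAA2 ChIP-seq signal in mouse hearts, 237 (6.10%) were given no gene by the authors, and these 237 regions are described here. They were chosen by the authors' count of genes per region, which is 0 in each of them; all 237 also have a promoter count of 0. The other 3648 regions have at least 1 assigned gene. The 4 groups crossed surgery and diet in male C57BL/6J mice aged 12 weeks. They were transverse aortic constriction (TAC) on a diet with 60 kcal% fat, sham surgery on that diet, TAC on a diet with 10 kcal% fat and sham surgery on that diet. The diets began 4 days before surgery and went on for 1 week after it. The labels give 1 library per group, made from a pool of 3, so there is no spread between hearts, no SD and no test, and every difference below describes a pair of libraries. A pooled input sample is listed without a column in the table, so signal was not set against input. The title and the antibody label name ACAA2, whereas the protocol text names antibodies to butyrylated or acetylated lysine 9 of histone H3, and the values were read as anti-ACAA2.

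ChIP-seq recovers DNA fragments that lie near an antibody's target in chromatin. ACAA2 is a thiolase of fatty acid beta-oxidation and is known chiefly as a mitochondrial matrix enzyme. Chromatin away from annotated promoters can hold enhancers, promoters of non-coding RNAs, unannotated starts, and genes read by RNA polymerase III, such as those of tRNAs. CpG islands are stretches rich in CG dinucleotides that mark many vertebrate promoters, and one far from a known gene is often called an orphan island.

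Although no gene was assigned to them, 14 of the 237 regions overlapped a window around a RefSeq gene start, running from 250 bases before to 50 after it (GRCm38.p6, whose chromosomes are those of mm10). These windows are where sequence could be read, so the stretches before the start that lie in such a region are printed for 7 of them. The set holds 6 protein-coding starts and 1 start of a long non-coding RNA without a CpG island for contrast. All are RefSeq sequence in GRCm38.p6, 5′ to 3′ on the strand of the gene. Capitals mark matches, on either strand, to the motifs searched, which are spelled out below. Not printed was the stretch of the protein-coding gene Aopep, which has an island and holds no match. Among long non-coding RNA starts not printed, that of 2900024J01Rik, with an island, holds none either. Those of D130051D11Rik and 6430573P05Rik, also with an island, hold a match.
Cic, chr7:25267449-25267698, plus strand: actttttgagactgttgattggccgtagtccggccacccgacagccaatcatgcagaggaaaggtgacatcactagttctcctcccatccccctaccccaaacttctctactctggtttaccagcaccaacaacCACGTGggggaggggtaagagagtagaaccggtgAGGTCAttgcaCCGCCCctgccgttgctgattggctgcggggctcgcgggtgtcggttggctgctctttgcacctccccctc
Gatad2b, chr3:90292931-90293089, plus strand: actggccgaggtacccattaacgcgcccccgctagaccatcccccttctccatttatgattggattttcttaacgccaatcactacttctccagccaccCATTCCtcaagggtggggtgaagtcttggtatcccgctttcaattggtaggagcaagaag
Pik3ca, chr3:32396815-32397064, plus strand: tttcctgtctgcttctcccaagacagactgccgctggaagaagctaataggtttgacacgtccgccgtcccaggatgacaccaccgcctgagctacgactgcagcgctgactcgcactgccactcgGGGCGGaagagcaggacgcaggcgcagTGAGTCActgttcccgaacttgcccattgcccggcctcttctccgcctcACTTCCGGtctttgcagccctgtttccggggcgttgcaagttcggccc
Numb, chr12:83921935-83922184, minus strand: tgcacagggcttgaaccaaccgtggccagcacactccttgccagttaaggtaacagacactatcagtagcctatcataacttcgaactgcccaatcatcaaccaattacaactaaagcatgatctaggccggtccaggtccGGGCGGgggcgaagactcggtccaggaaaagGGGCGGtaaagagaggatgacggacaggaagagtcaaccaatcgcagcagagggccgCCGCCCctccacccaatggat
Rlf, chr4:121215085-121215334, minus strand: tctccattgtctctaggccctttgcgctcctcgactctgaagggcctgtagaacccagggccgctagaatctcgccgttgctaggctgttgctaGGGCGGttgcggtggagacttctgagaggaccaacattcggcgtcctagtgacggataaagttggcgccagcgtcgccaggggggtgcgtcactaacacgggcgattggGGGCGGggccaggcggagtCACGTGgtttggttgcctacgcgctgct
Ip6k2, chr9:108783609-108783811, plus strand: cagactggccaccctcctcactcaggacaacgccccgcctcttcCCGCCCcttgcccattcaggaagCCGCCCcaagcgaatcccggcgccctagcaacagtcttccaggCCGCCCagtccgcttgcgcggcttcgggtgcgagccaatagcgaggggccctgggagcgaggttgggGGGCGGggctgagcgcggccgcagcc
Gm30470, chr11:79224555-79224684, plus strand: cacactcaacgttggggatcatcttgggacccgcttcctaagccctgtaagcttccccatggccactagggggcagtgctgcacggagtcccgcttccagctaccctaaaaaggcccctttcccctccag

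The 14 regions meet 17 start windows. Over the whole windows the median GC content was 63.3%, against 62% in 2863 windows met by regions with a gene and 52.7% in all 32817 windows. The median number of CG dinucleotides per window was 19, against 24 and 7 in the same sets. SP1, a factor that binds GC boxes, has the letters GGGCGG, which were in 10 of 17 windows (58.8%), against 69.6% of those met by regions with a gene and 35.6% of all windows. Printed above, the Cic, Pik3ca, Numb, Rlf and Ip6k2 stretches hold it 1, 1, 3, 2 and 4 times. AP-1 (TGANTCA), the dimer of Fos and Jun proteins, was in 3 windows (17.6%, against 3.84% and 7.81%), 1 of them before Pik3ca. The E-box (CACGTG), bound by Myc and clock factors, was in 3 (17.6%, against 12.4% and 7.15%), among them Cic and Rlf. CRE (TGACGTCA), bound by CREB, was in 2 (11.8%, against 4.72% and 1.79%). ETS (CCGGAAGT), NKX2-5 (CACTTGA), TEAD (GGAATG) and the nuclear receptor half-site (AGGTCA) were each in 1 window, against 3.89%, 3.06%, 14.7% and 16.3% of all windows. NRF1 (GCATGCGC), the GATA factor motif (AGATAAG), ERR (TCAAGGTCA), the glucocorticoid receptor motif (ACANNNTGT) and the telomere repeat (TTAGGGTT) were in 0, against 2.71%, 3.05%, 0.424%, 6.85% and 0.872% of all windows. Both strands were searched for the 13 motifs. The ERR letters contain the half-site, which was counted separately. Such matches are letters in a window and show no binding of a factor. The other regions lie outside these windows, and their sequence was not analysed here.

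The protein-coding starts printed above, described here, included genes of signalling and chromatin. No share of such genes was computed, and the start of Aopep and most long non-coding RNA starts are left out. Cic encodes a transcriptional repressor downstream of receptor tyrosine kinases, and its region (chr7:25267389-25268372) covered 983 bp and a CpG island. The average signal there (mean fragment pileup over the region) was 18.1 in TAC and 13.2 in sham hearts on 60% fat diet, and 14.6 in TAC and 17.4 in sham hearts on 10% fat diet. It was called in all 4 libraries, and sham hearts on 60% fat diet had the lowest value. Gatad2b encodes a subunit of the NuRD chromatin remodelling complex, and the region chr3:90292540-90293089 ended 92 bp before the gene. Signal was 13.7 in TAC and 10.1 in sham hearts on 60% fat diet, and 13.3 in TAC and 15 in sham hearts on 10% fat diet. It too was called in all 4 libraries, again with the lowest value in sham hearts on 60% fat diet. Pik3ca, the catalytic alpha subunit of phosphoinositide 3-kinase, had 9.91 in TAC and 14.2 in sham hearts on 60% fat diet, and 11.5 in TAC and 9.54 in sham hearts on 10% fat diet. Numb, an inhibitor of Notch, had 12.7 in TAC and 6.33 in sham hearts on 60% fat diet, and 18.4 in TAC and 11.7 in sham hearts on 10% fat diet. Pik3ca was higher in sham hearts on 60% fat diet and in TAC hearts on 10% fat diet. Rlf, a zinc finger protein, had 11.7 in TAC and 5.12 in sham hearts on 60% fat diet, and 8 in TAC and 9.5 in sham hearts on 10% fat diet. Ip6k2, an inositol hexakisphosphate kinase, had 8.07 in TAC and 9.2 in sham hearts on 60% fat diet, and 7.13 in TAC and 8.8 in sham hearts on 10% fat diet, with sham above TAC hearts on both diets. Across the 14 start-window regions the median of the mean signal was 10.8, and 12 of 14 held a CpG island.

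In level the regions with no gene stood below the others. The mean of the 4 average signals had a median of 8.32 in regions with no gene (range 3.53 to 18.02) and of 9.84 in regions with a gene. The difference was seen in each library. In TAC hearts on 60% fat diet the median was 8.31 in regions with no gene and 9.73 in those with one, and in sham hearts on that diet 5.94 in regions with no gene and 7.37 in those with one. In TAC hearts on 10% fat diet it was 8.50 in regions with no gene and 10.8 in those with one, and in sham hearts on that diet 10.9 in regions with no gene and 11.9 in those with one. The gap was smaller within CpG classes. Of the regions without an island, those with no gene had a median of 7.96 and those with a gene 8.65. With an island the medians were 9.88 in regions with no gene and 10.2 in regions with a gene. In TAC hearts on 60% fat diet the island regions went the other way, with 10.7 in regions with no gene and 10.1 in regions with a gene. The median length was 282 bp, against 308 bp. In estimated fragments a median region with no gene held 10.8 in TAC and 7.89 in sham hearts on 60% fat diet, and 11.3 in TAC and 14.2 in sham hearts on 10% fat diet. A ratio in one region is therefore imprecise.

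**Figure D1:**
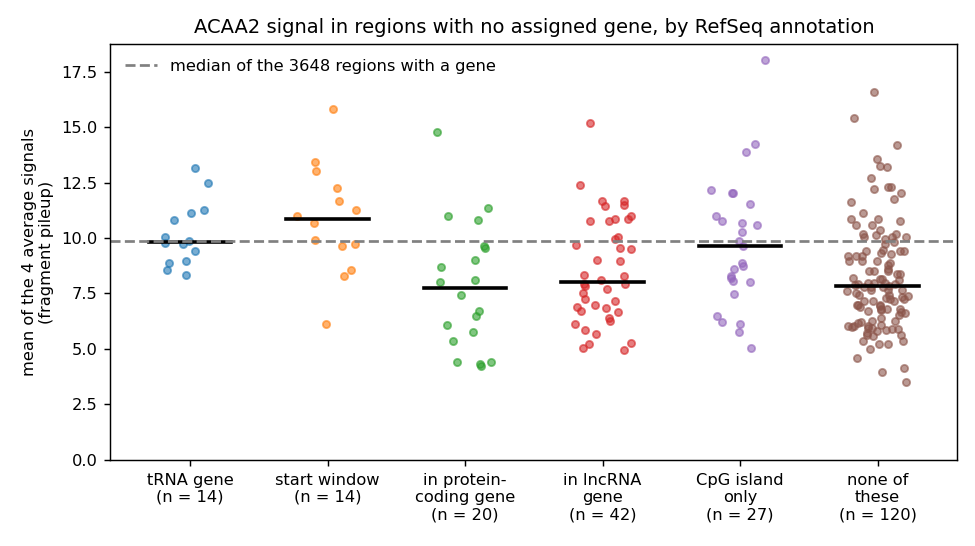
Mean of the 4 average signals (fragment pileup, vertical axis) of each of the 237 regions with no gene, in 6 classes of RefSeq and CpG island annotation assigned from left to right; points are regions, black bars class medians and the dashed line the median of the 3648 regions with a gene, 9.84. Regions at start windows, tRNA genes and CpG islands have medians of 10.8, 9.82 and 9.63, and the 120 regions with none of these annotations 7.82.

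Calls lay below the background in each library, and by the least in sham hearts on 10% fat diet. In TAC hearts on 60% fat diet 75 of 237 regions (31.6%) carried a called interval, against a background of 35.9% of all regions, and in sham hearts on that diet 25 did (10.5%, against 15.4%). On 10% fat diet the numbers were 91 in TAC hearts (38.4%, against 46.8%) and 134 in sham hearts (56.5%, against 57.3%). Most were called in 1 library only, 178 of 237, and 59 (24.9%, Wilson 95% interval 19.8 to 30.8%) in 2 or more, against 36.9% (35.4 to 38.5%) of regions with a gene. Of the 178 called once, 85 were called in sham hearts on 10% fat diet, the library that also called the largest share of all regions (57.3%). The matching share among regions with a gene called once is not given here. The calls too differed by island content. With an island, TAC hearts on 60% fat diet called 41.1% of the regions with no gene and 37.9% of those with a gene, TAC hearts on 10% fat diet 51.8% and 50.4%, and 35.7% and 41.4% were called in 2 or more libraries. Without an island the shares called in 2 or more were 21.5% and 22%, within each other's intervals. A region is in the table because at least 1 library called it, which bears on every comparison of libraries below.

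The shared features fell into a few classes. A CpG island lay in 56 regions with no gene (23.6%, Wilson 95% interval 18.7 to 29.4%) and in 76.9% (75.6 to 78.3%) of regions with a gene. Beyond 10 kb from protein-coding genes these shares were 19.5% and 34.2%. A tRNA gene lay in 14 (5.91%, 3.55 to 9.67%), against 64 regions with a gene (1.75%, 1.38 to 2.23%). The gap depended on which regions were compared. Beyond 10 kb from protein-coding genes the share was 6.50% in regions with no gene and 10.96% (8 regions) in regions with a gene, the other way round. Among regions without an island it was 4.97% (2.64 to 9.18%) and 4.64% (3.41 to 6.28%), and among those with one 8.93% (3.87 to 19.3%) and 0.891% (0.604 to 1.31%). A long non-coding RNA gene was overlapped by 53 (22.4%, 17.5 to 28.1%), against 12.3% (11.3 to 13.4%), and among regions without an island the shares were 21.5% and 13.6%. RefSeq placed 26 regions (10.97%) in protein-coding genes although the authors' annotation gave them none. A further 11 lay within 10 kb of one and 200 (84.4%) farther away, and the median distance was 21282 bp with a maximum of 523786 bp. In regions with a gene 98.0% lay within 10 kb of a RefSeq protein-coding gene. Assigned in order, the classes held 14 regions at tRNA genes, 14 at start windows, 20 inside protein-coding genes, 42 inside long non-coding RNA genes, 27 with a CpG island only and 120 with none of these. Genes of snRNAs, snoRNAs, microRNAs and rRNAs were in 0 of the regions, and a pseudogene in 1.

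**Figure D2:**
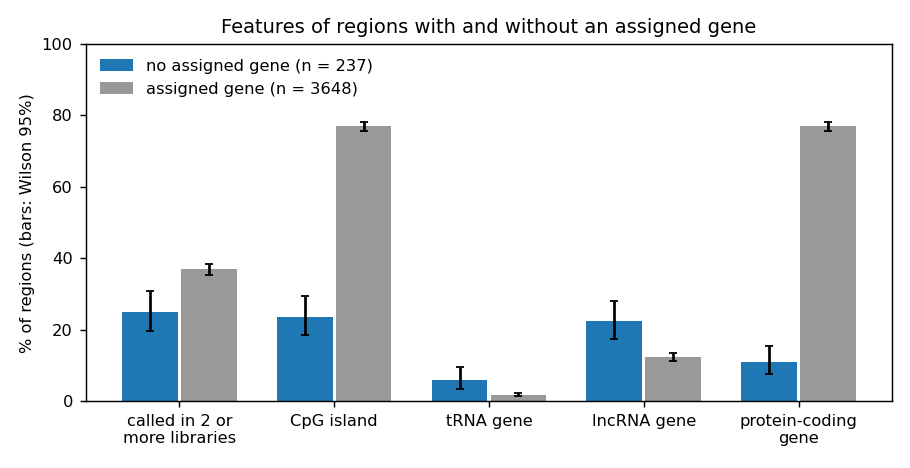
Share of regions (percent, vertical axis) with each feature, in the 237 regions with no gene (blue) and the 3648 regions with a gene (grey); bars start at 0 and error bars are Wilson 95% intervals over regions. Over all regions, those with no gene have a higher share with tRNA genes (5.91% against 1.75%, but 6.50% against 10.96% beyond 10 kb from protein-coding genes and 4.97% against 4.64% without an island) and long non-coding RNA genes (22.4% against 12.3%), and a lower one with CpG islands (23.6% against 76.9%).

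Regions at tRNA genes were more often called in 2 or more libraries than the regions with no gene as a whole. Transfer RNAs carry amino acids to the ribosome, and RNA polymerase III reads their genes from promoters inside the gene. The 14 regions covered 17 of the 408 nuclear tRNA genes in RefSeq, and all regions of the table together covered 94. The strongest by mean signal was at n-TRccg1, a gene of arginine tRNA (chr11:107012457-107013064), with 13.6 in TAC and 10.4 in sham hearts on 60% fat diet, and 13.7 in TAC and 14.8 in sham hearts on 10% fat diet. At n-TVcac6, a valine tRNA gene (chr1:171111128-171111596), the signal was 15.2 in TAC and 4.73 in sham hearts on 60% fat diet, and 20.1 in TAC and 9.93 in sham hearts on 10% fat diet. Both TAC libraries were above both sham libraries there. It lay with n-TDgtc5 and with n-TGtcc3 and n-TEctc6 in 1 cluster of 3 regions (chr1:171102177-171111596), and the n-TGtcc3 region had 15.5 in TAC and 6.92 in sham hearts on 60% fat diet, and 9.69 in TAC and 11 in sham hearts on 10% fat diet. A second cluster of 4 regions on chromosome 13 (chr13:23517120-23519679) held n-TGgcc6, n-TMcat6, n-TStga1 and n-TQttg5, tRNA genes of glycine, methionine, serine and glutamine. At n-TQttg5 the signal was 15.1 in TAC and 5.75 in sham hearts on 60% fat diet, and 15.1 in TAC and 9 in sham hearts on 10% fat diet, again higher in both TAC libraries. The n-TStga1 region had 9.57 in TAC and 9.07 in sham hearts on 60% fat diet, and 6.36 in TAC and 10.4 in sham hearts on 10% fat diet.

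Called in 2 or more libraries were 9 of the 14 (64.3%, Wilson 95% interval 38.8 to 83.7%), against 24.9% of all regions with no gene. Of the 64 regions with both a tRNA gene and an assigned gene, 43 were (67.2%, 55.0 to 77.4%), a share close to that of the 14. On 60% fat diet the TAC library called 8 of the 14 (57.1%) and the sham library 1 (7.14%). These libraries called 56.25% and 35.9% of the 64 regions, and 35.9% and 15.4% of all regions. On 10% fat diet the TAC library called 8 (57.1%) and the sham library 11 (78.6%). The shares there were 62.5% and 71.9% of the 64 regions, and 46.8% and 57.3% of all regions. For TAC over sham on 60% fat diet the median log2 ratio was 0.55, against 0.28 in those 64 regions. Above 0 were 12 of 14 (85.7%), against 68.8% of the 64 and 68.7% of all regions. At least 2-fold higher were 3 (21.4%, against 3.1% and 15.5%). On 10% fat diet the median was -0.10, against 0.021, with 4 of 14 above 0 (28.6%, against 54.7% and 43.0%). In sham hearts, the 60% over 10% fat diet ratio was below 0 in 14 of 14, with a median of -0.60, against -0.47. Only 20.3% of the 64 and 19.2% of all regions were above 0 there. In TAC hearts the median was -0.056, against -0.17. Over all 3885 regions the medians of these comparisons were 0.32, -0.14, -0.57 and -0.14, so the medians of the 14 regions had the signs of the table as a whole. Copies of tRNA genes are near-identical in sequence; how the authors placed reads that match several copies is not given in the sources used here, so the share of signal between copies is uncertain.

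**Figure D3:**
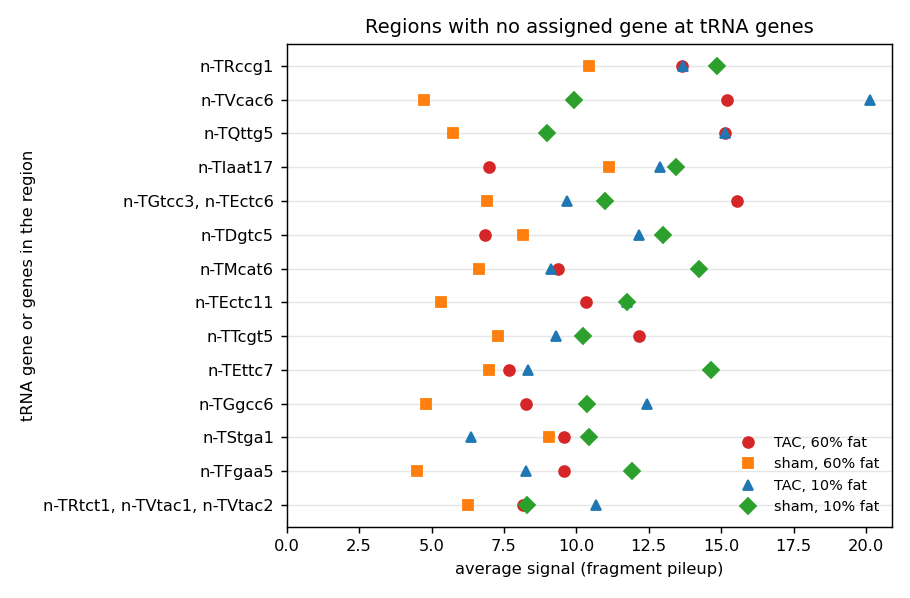
Average signal (fragment pileup, horizontal axis) in the 14 regions with no gene that hold a tRNA gene, 1 row per region with its RefSeq tRNA genes, ordered by mean signal; each marker is 1 library. The library from sham hearts on 60% fat diet is the lowest in most rows, and n-TVcac6 reaches 20.1 in TAC hearts on 10% fat diet.

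Among regions far from tRNA genes and start windows, the highest mean signal was at an orphan CpG island (chr5:142367376-142367823), 33674 bp from Foxk1, a forkhead factor that represses autophagy genes. The signal there was 16.3 in TAC and 11.4 in sham hearts on 60% fat diet, and 22.3 in TAC and 22.1 in sham hearts on 10% fat diet. Diet separated its libraries more than surgery did. Next came a region without an island (chr8:126736321-126736813) 142335 bp from Irf2bp2, a transcriptional corepressor, with 14.5 in TAC and 15.1 in sham hearts on 60% fat diet, and 12.7 in TAC and 24.1 in sham hearts on 10% fat diet. Only the sham library on 10% fat diet called it, and 2 other regions had the same nearest gene. Hdac4, a class IIa histone deacetylase that restrains MEF2 in muscle, held an island inside the gene (chr1:92180611-92181031) with 11.8 in TAC and 17.2 in sham hearts on 60% fat diet, and 13.2 in TAC and 17 in sham hearts on 10% fat diet. In that region both sham libraries were above both TAC libraries. Of the remaining regions in the 10 highest, 1 lay near Jade2 and Cdkn2aipnl (chr11:51915949-51916273), 1 near Atf7ip (chr6:136468534-136468802), 1 between Yes1 and Pisd (chr5:32714037-32714426), 2 between Ddit4 and Anapc16 and 1 near Ptma, in clusters described next.

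Regions with no gene also lay in clusters. Joined when within 20 kb of each other, they formed 212 loci, of which 18 held 2 or more regions and 43 regions in all. Along chr1:86487186-86504592, 4 regions with CpG islands lay 21965 to 38551 bp from Ptma, the gene of prothymosin alpha. The longest of them (chr1:86487186-86488006) was called in all 4 libraries and had 12.7 in TAC and 11.4 in sham hearts on 60% fat diet, and 18.7 in TAC and 12.8 in sham hearts on 10% fat diet. TAC hearts on 10% fat diet stood above the other 3 libraries there. Between Ddit4, a stress-induced inhibitor of mTORC1, and Anapc16, a subunit of the anaphase-promoting complex, 3 regions without an island lay within chr10:59969920-59974586. The strongest had 7.69 in TAC and 13.9 in sham hearts on 60% fat diet, and 17.6 in TAC and 17.6 in sham hearts on 10% fat diet. A neighbour (chr10:59974147-59974586) had 9.54 in TAC and 13.7 in sham hearts on 60% fat diet, and 13 in TAC and 18 in sham hearts on 10% fat diet, and TAC hearts on 60% fat diet were lowest in both. The fourth region called in all 4 libraries (chr12:86932064-86933177), the longest of the 237 at 1113 bp, lay 11564 bp from Cipc, a CLOCK-interacting repressor, with 9.46 in TAC and 11.5 in sham hearts on 60% fat diet, and 7.4 in TAC and 14 in sham hearts on 10% fat diet. Sham was above TAC on both diets there.

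Genes flanking the regions were set against 9 lists. Of 11 immediate early genes, 3 (Btg2, Fos and Klf6) were the nearest protein-coding gene of 6 regions, while the sarcomere, cardiac transcription factor, fatty acid oxidation, endothelial, fibroblast, macrophage, liver and neuron lists were nearest to 0. Over the whole table the immediate early list had 16 assigned regions, the most of the 9 lists, and fatty acid oxidation 7. The sarcomere and cardiac transcription factor lists had 5 and 6, endothelial and macrophage markers 1 and 3, and fibroblast, liver and neuron markers 0. Assigned regions carry the authors' genes, whereas a nearest gene was taken at any distance, so these counts are not on a like scale. A gene with no region here may still be active. Klf6, a zinc finger factor induced by injury, was nearest to 4 regions at 19886 to 256864 bp. The closest of them (chr13:5841300-5841603) had 12.2 in TAC and 5.6 in sham hearts on 60% fat diet, and 3.57 in TAC and 3.4 in sham hearts on 10% fat diet. The next (chr13:5804372-5804581) had 13.3 in TAC and 5.43 in sham hearts on 60% fat diet, and 4.29 in TAC and 3.86 in sham hearts on 10% fat diet. TAC hearts on 60% fat diet were highest in both. The other 2, at chr13:5714461-5714666 and chr13:5603961-5604625, did not share this order, with 6.57 in TAC and 4.83 in sham hearts on 60% fat diet in the first and 7.05 in TAC and 11.5 in sham hearts in the second. A region 55561 bp from Fos, the AP-1 gene (chr12:85532835-85533073), had 8 in TAC and 2.57 in sham hearts on 60% fat diet, and 6.86 in TAC and 14.3 in sham hearts on 10% fat diet. Nearness in bases assigns no target.

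On 10% fat diet, the comparison of TAC with sham hearts sets pressure overload against its control at low fat intake. Over the 237 regions, log2 ratios of the average signal plus 1 had a median of -0.22 (95% order-statistic interval over regions -0.47 to -0.06), against -0.14 over all regions. At least 2-fold higher were 15 regions (6.33%, background 7.98%), and at least 2-fold lower 40 (16.9%, background 11.7%). In regions without a CpG island the median was -0.39 with 36 of 181 lower and 12 higher (6.63%, against 11.9% of such regions with a gene). With an island it was -0.10, with 4 of 56 lower (7.14%, against 8.87% of island regions with a gene) and 3 higher (5.36%, against 6.95%). Regions with a gene but no island had a median of -0.30 and 19.7% lower, against 19.9% in regions with neither. In the 440 regions with a gene but a promoter count of 0 the median was -0.33, with 22.5% lower and 10.2% higher. The lowest ratio by the naming rule was at the start of the long non-coding RNA Gm30470 (chr11:79224555-79224863), whose sequence is printed above. Signal was 14.8 in TAC and 9.78 in sham hearts on 60% fat diet, and 2.44 in TAC and 15.8 in sham hearts on 10% fat diet, and the log2 ratio on 10% fat diet was -2.28 (-4.91 to -1.03), with the counting interval in parentheses here and below. Regions named for a ratio were chosen by its size, and many are in the table through a single library. These intervals do not allow for either choice, whether or not they include 0. At chr1:60169613-60169843, 8897 bp from Nbeal1, signal was 2.29 in TAC and 13.6 in sham hearts (-2.15 on the log2 scale), and at chr12:99609846-99610058, 46179 bp from the forkhead gene Foxn3, 2 in TAC and 13.3 in sham hearts (-2.25). Between Iyd and Plekhg1 (chr10:3630616-3630867) it was 3 in TAC and 13.4 in sham hearts, a log2 ratio of -1.85 (-4.42 to -0.41). A region 302870 bp from Foxo1, a target of insulin signalling (chr3:52652979-52653260), had 4.11 in TAC and 13.8 in sham hearts, a log2 ratio of -1.53 (-3.51 to -0.27). This region overlaps a long non-coding RNA gene, as does the one near Foxn3. So do the regions named by coordinates near Kmt2e, Btg2, Jak1, Mfhas1, Tbc1d1 and Atf7ip, and the one between Rpia and Eif2ak3.

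Of the regions named by the rule, the highest ratio in TAC hearts was inside Socs2, a feedback inhibitor of cytokine and growth hormone signalling (chr10:95396607-95396874), with 12.3 in TAC and 2.89 in sham hearts on 10% fat diet. Its log2 ratio was 1.78 (0.35 to 4.33). Between Calm2 and Epcam (chr17:87571706-87571948) signal was 17.8 in TAC and 6.12 in sham hearts, a log2 ratio of 1.40 (0.20 to 3.07). Near Kmt2e, a SET domain chromatin regulator (chr5:23418180-23418440), it was 13.4 in TAC and 4.88 in sham hearts, and the interval of 1.29 (-0.01 to 3.15) includes 0. The remaining 3 named, at chr8:84192198-84192424, chr3:37758498-37758725 and chr17:83275976-83276264, had 1.17, 1.11 and 1.03, with intervals that also include 0. Ratios above that of Socs2 came from regions whose signal was below the rule's minimum. Of these, the regions inside Cbx7 and near Wdr5, both described below for the diets and given here after their values were seen, had 11.6 in TAC and 1 in sham hearts and 12.2 in TAC and 2.18 in sham hearts. Their log2 ratios were 2.65 (0.65 to 9.38) and 2.05 (0.86 to 4.59). The TAC library on 10% fat diet alone called both regions, as it did those inside Socs2 and between Calm2 and Epcam. None of these intervals allows for this choice. The counts differed with the libraries that called the regions. Among the 94 regions that a 60% fat diet library called, 1 was 2-fold higher (1.06%, against 3.17% of all such regions) and 8 lower (8.51%, against 5.81%), with a median of -0.020. After subtraction of the all-region median, 26 regions were higher (10.97%, against 10.94% of all regions) and 29 lower (12.2%, against 8.34%).

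The same comparison on 60% fat diet ran the other way. The median over regions with no gene was 0.37 (0.27 to 0.54), against 0.32 over all regions. At least 2-fold higher in TAC hearts were 39 regions (16.5%, background 15.5%), and 12 were at least 2-fold lower (5.06%, background 3.11%). Of the 440 regions with a gene but a promoter count of 0, 20.9% were higher and 5.91% lower. CpG island regions had 10 of 56 higher (17.9%, against 14.4% of island regions with a gene) and 0 lower (against 2.39%). Regions without an island had 29 of 181 higher (16.0%, against 19.1% of such regions with a gene) and 12 lower (6.63%, against 4.99%). Orphan islands, the 27 regions with an island as their only annotation, had a median of 0.61 (0.14 to 0.78). Above 0 were 25 of 27 (92.6%), and 5 were at least 2-fold higher (18.5%). Of all 56 island regions with no gene, which include these 27, 44 were above 0 (78.6%), with a median of 0.51 (0.22 to 0.66). Start-window regions and tRNA gene regions each had 12 of 14 above 0 (85.7%). The median was 0.33 and 69.6% were above 0 in island regions with a gene, and 68.7% in all regions. The highest ratio by the naming rule was 28746 bp from Irf2, an interferon regulatory factor (chr8:46876204-46876453). The signal there was 12.6 in TAC and 1.29 in sham hearts on 60% fat diet, and 2.5 in TAC and 11.5 in sham hearts on 10% fat diet. Sham hearts on 60% and TAC hearts on 10% fat diet were low and the other pair high, with a log2 ratio of 2.58 (0.90 to 7.36) on 60% fat diet. Between Ccnd1, the cyclin D1 gene, and Tpcn2 (chr7:145111645-145111991) signal was 17.5 in TAC and 3 in sham hearts, a log2 ratio of 2.21 (1.10 to 4.35).

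A CpG island 13883 bp from Btg2, an antiproliferative immediate early gene (chr1:134093038-134093293), had 13.9 in TAC and 2.75 in sham hearts on 60% fat diet, and 10.4 in TAC and 18.9 in sham hearts on 10% fat diet. Sham hearts on 60% fat diet stood alone below the other libraries, and the log2 ratio was 1.99 (0.55 to 4.69). Near Slc38a2, a neutral amino acid transporter of the stress response (chr15:96710442-96710668), signal was 13 in TAC and 2.57 in sham hearts (1.97), and near the kinase gene Jak1 (chr4:101292552-101292761) 11.3 in TAC and 2.25 in sham hearts (1.92). Lower in TAC hearts was a region inside Maml2, a coactivator of Notch (chr9:13563834-13564040), with 1 in TAC and 13.6 in sham hearts on 60% fat diet, and 0 in TAC and 2.29 in sham hearts on 10% fat diet. It is high in 1 library only, with a log2 ratio of -2.87 (-9.57 to -0.94). At chr8:35707932-35708150, near Mfhas1, signal was 2.33 in TAC and 13.4 in sham hearts (-2.11), and at chr13:13889565-13889768, between Gng4 and B3galnt2, 2.71 in TAC and 12.9 in sham hearts (-1.90). A region 65273 bp from Ppara, the nuclear receptor that drives fatty acid oxidation genes (chr15:85669434-85669637), had 5.14 in TAC and 11.4 in sham hearts, and its ratio of -1.02 (-3.11 to 0.55) has an interval across 0, as does that near Armc2 and Foxo3 (chr10:42089760-42090024), -1.36 (-3.82 to 0.17). Among the 190 that a 10% fat diet library called, 15 were 2-fold higher (7.89%, against 9.93% of all such regions) and 8 lower (4.21%, against 2.15%). After the same centring 21 regions were higher (8.86%, against 7% of all regions) and 29 lower (12.2%, against 7.72%).

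**Figure D4:**
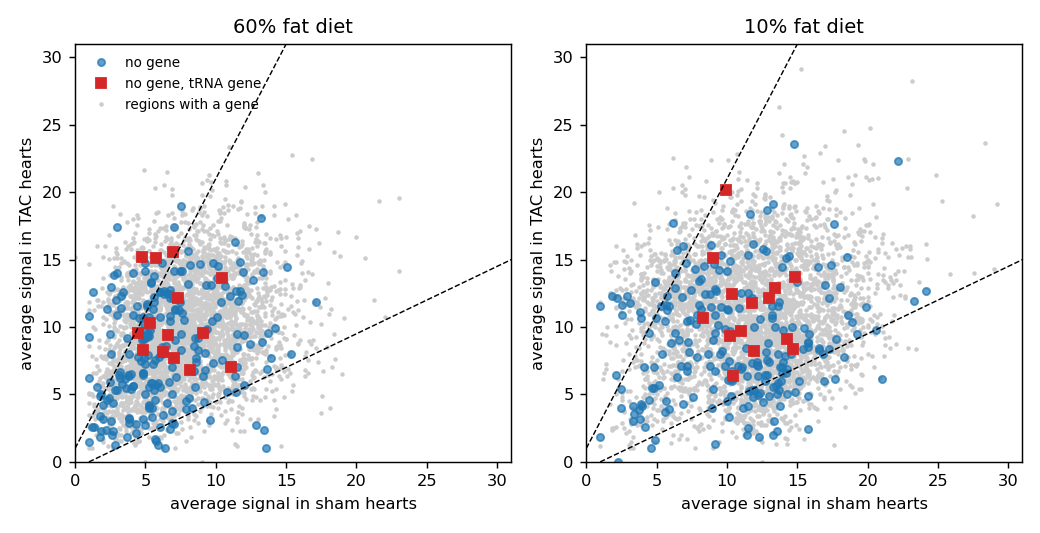
Average signal (fragment pileup) in TAC hearts (vertical axis) against sham hearts (horizontal axis) on 60% (left) and 10% fat diet (right); blue circles are regions with no gene, red squares those that hold a tRNA gene and grey points regions with a gene, and dashed lines mark a 2-fold ratio with 1 added to both signals. On 60% fat diet 39 regions with no gene are at or above the upper line and 12 at or below the lower one; on 10% fat diet 15 and 40 are.

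Diet was compared within each surgery. In sham hearts the 60% over 10% fat diet median was -0.65 (-0.72 to -0.54) in regions with no gene, against -0.57 over all regions. At least 2-fold lower on 60% fat diet were 68 regions (28.7%, background 24.8%) and 6 were higher (2.53%, background 2.01%). Of the 440 regions with a gene but a promoter count of 0, 34.8% were lower and 2.95% higher. Named low regions included chr10:3630616-3630867 between Iyd and Plekhg1, with 1 on 60% and 13.4 on 10% fat diet, a log2 ratio of -2.85 (-8.65 to -1.15). A CpG island between Dio3 and Ppp2r5c (chr12:110373248-110373564) had 1.33 on 60% and 13.5 on 10% fat diet (-2.64), and a region between Rpia and Eif2ak3 (chr6:70811894-70812153) 1.88 on 60% and 11.5 on 10% fat diet (-2.12). The regions near Irf2 and Btg2 described above had -2.45 and -2.41. Of the few higher ones, the Maml2 region had 2.15 (0.45 to 5.66). A region between Smad3 and Smad6, genes of TGF-beta and BMP signalling (chr9:63877736-63877976), had 12.4 on 60% and 2.43 on 10% fat diet, a log2 ratio of 1.97 (0.41 to 5.03). The third, 52046 bp from the GTPase gene Rhob (chr12:8445412-8445615), had 15.3 on 60% and 4.83 on 10% fat diet (1.49). Among the 138 that a TAC library called, 1 was higher (0.725%, against 1.22% of all such regions) and 16 lower (11.6%, against 14.2%). With centred ratios 20 were higher (8.44%, against 8.26% of all regions) and 24 lower (10.1%, against 6.85%).

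In TAC hearts the median was -0.13 (-0.31 to 0.02), against -0.14 over all regions, with 23 regions at least 2-fold higher (9.70%, background 7%) and 31 lower (13.1%, background 11.3%). Of the 440 regions with a gene but a promoter count of 0, 11.6% were higher and 16.1% lower. Higher on 60% fat diet was chr10:93095143-93095429 between Cfap54 and Cdk17, with 12 on 60% and 1.62 on 10% fat diet, a log2 ratio of 2.31 (0.81 to 5.97). The Gm30470 start had 14.8 on 60% and 2.44 on 10% fat diet and a log2 ratio of 2.20 (0.92 to 4.82). A start of the long non-coding RNA Gm32287, 87146 bp from the transcription factor gene Cebpb (chr2:167777578-167777970), had 19 on 60% and 5.08 on 10% fat diet (1.72). The Irf2, Slc38a2 and Ccnd1 to Tpcn2 regions were also among the named, at 1.96, 1.97 and 1.73. Lower was a region 16301 bp from Wdr5, a shared subunit of histone H3 lysine 4 methyltransferases (chr2:27552836-27553214), with 1.27 on 60% and 12.2 on 10% fat diet, a log2 ratio of -2.54 (-6.24 to -1.28). The Socs2 region was at -2.45, that between Calm2 and Epcam at -2.10, one inside Bicral (chr17:46856570-46856805) at -2.07 and one near Tbc1d1, a regulator of glucose uptake (chr5:64382473-64382774), at -2.06. A region inside Cbx7, a Polycomb protein gene (chr15:79953632-79953837), had 2.29 on 60% and 11.6 on 10% fat diet (-1.94). Among the 144 that a sham library called, 4 were higher (2.78%, against 3.25% of all such regions) and 9 lower (6.25%, against 5.19%). With centred ratios the balance turned, with 31 higher (13.1%, against 9.47% of all regions) and 23 lower (9.70%, against 7.90%), and the median was 0.013.

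The crossed design also gives the difference of the TAC over sham ratios between the diets, 60% minus 10%. Its median over regions with no gene was 0.55 (0.36 to 0.76), against 0.45 over all regions. It was above 1 log2 unit in 81 regions (34.2%, background 28.9%) and below -1 in 20 (8.44%, background 8.7%). Of the 440 regions with a gene but a promoter count of 0, 40.2% were above and 11.8% below. With 1 library per group the difference was not tested. The largest differences by the naming rule were 3.70 between Iyd and Plekhg1, 2.83 at Gm30470, 2.79 near Btg2 and 2.66 near S1pr1, a receptor of sphingosine 1-phosphate (chr3:115768892-115769101). The Irf2 region, whose signal was below the rule's minimum for this difference, had 4.41, chosen after its value was seen. The lowest by the rule were -2.52 near Mfhas1, -2.04 near Tbc1d1, -1.98 near Kmt2e and -1.56 near Lgalsl (chr11:20859115-20859425). Also below the rule's minimum signal and named for their values, the Cbx7 and Wdr5 regions had -2.83 and -2.80. At least 2-fold lower on 10% and at least 2-fold higher on 60% fat diet after TAC were 6 regions with no gene (2.53%), against 1.78% of all regions. The opposite pattern was in 0 of them. It was rare in the whole table too, in 7 of 3885 regions, where 69 had the first pattern. In regions with no gene called in 2 or more libraries, 12 of 59 (20.3%) were above 1 log2 unit and 0 below -1. The share over all regions so called was not computed, so these counts have no background. With centred ratios 46 regions with no gene were above (19.4%, against 15.5% of all regions) and 36 below (15.2%, against 16.7%).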

How the data were processed

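Per the labels, chromatin from heart tissue was precipitated and sequenced in 4 libraries. Per the submitters' processing notes, BWA, SICER and the mm10 build were used; versions, read filters, call cutoffs and depth matching are not stated in the sources at hand. Per the file headers, the deposited table gives for each merged region and library the average and the highest signal (fragment pileup, unscaled: the highest values are whole numbers), the authors' log2 ratios (not used) and estimated fragments of a pair's higher library, calls of intervals as 0 or 1, and counts of CpG islands, promoters and genes. Whether starts count from 0 or 1 is not given. The table has 0 columns of samples that could not be mapped.

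Regions with a gene count of 0 were taken. Log2 ratios used the average signal plus a pseudocount of 1; at least 2-fold means 1 log2 unit or more. Fragments were estimated as average signal times length over 224, the constant in the authors' fragment estimates. Over the 237 regions they sum to 3125 in TAC and 2451 in sham hearts on 60% fat diet, and 3374 in TAC and 3891 in sham hearts on 10% fat diet. Counting intervals of ratios are exact Clopper-Pearson intervals of these fragments without the pseudocount, at 95%; shares have Wilson intervals and medians order-statistic intervals over regions. None covers variation between hearts, and without molecular identifiers, fragments cannot be counted as independent molecules. The formulas were tested on simulated data. Genes came from RefSeq GRCm38.p6. Of 1715 regions that the authors gave 1 gene, 1592 symbols were found there, 1590 of them within 10 kb of the region. No genome of the build was used, so motifs were searched in RefSeq start windows alone and planned sequence features of whole regions were not run.

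Regions were named by a rule: the 10 with the highest mean signal; per comparison up to 6 in each direction by log2 ratio among those at least 2-fold changed whose higher signal of the pair is at or above its median over the 237; 4 in each direction for the difference between diets; and all called in 4 libraries. The start-window, tRNA, cluster and gene-list regions were described besides these. Regions on chromosome 18 that the rule named are not described. Regions, lists and classes were chosen with earlier results of these data known. Scripts used Python 3.11.15, pandas 2.3.3, NumPy 2.4.6, SciPy 1.17.1 and matplotlib 3.10.9. Alternatives were other pseudocounts, a filter on low values, peak signal, centring, quantile normalization, calls outside the comparison, chromosomes, stricter calls, distance from genes and 1 region per locus.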

Additional observations from a re-analysis of the deposited data

Results flagged for a closer look

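The TAC over sham ratio of regions with no gene differed in sign between the diets: the median log2 ratio was 0.37 on 60% fat diet and -0.22 on 10% fat diet, 0.59 apart. With 1 library per group, this difference was not tested. It stands out because each diet's pair moves the opposite way, as it does over all regions of the table.

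In 6 single regions both pairs were at least 2-fold apart and in opposite directions, higher after TAC on 60% and lower after TAC on 10% fat diet. The difference of the log2 ratios was 4.41 near Irf2 (chr8:46876204-46876453), 3.84 near Tfpi, the gene of a coagulation inhibitor (chr2:84518718-84518927, described only because of this pattern), and 3.70 between Iyd and Plekhg1 (chr10:3630616-3630867). It was 2.91 between Cfap54 and Cdk17 (chr10:93095143-93095429), 2.66 near S1pr1, a receptor of sphingosine 1-phosphate (chr3:115768892-115769101), and 2.37 at Gm32287 (chr2:167777578-167777970). None of these differences was tested, and each was chosen for its size. Over all 3885 regions, 69 had the same pattern and 7 the reverse one.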

How the results depend on the processing

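No paired analysis was possible because each group has 1 library, and for the same reason no replicate could be left out. The 22 results were recomputed in 151 alternatives; 91 stayed within 1.5 times the count or within the interval and 60 moved. The median of 60% over 10% fat diet in TAC hearts, whose interval includes 0, changed sign with centring (0.013, against -0.13 without it); the other medians kept theirs. Counts are given as higher and lower. For TAC over sham on 10% fat diet, a pseudocount of 5 gave 8 and 12 regions. Requiring the higher library to reach the all-region median (88 regions) gave 4 and 18 with a median of -0.69, and calls in a library outside the comparison 1 and 8 with -0.020; higher counts were 26 after centring and 23 after quantile normalization. For TAC over sham on 60% fat diet, a pseudocount of 5 gave 13 and 3 with a median of 0.25, centring 21 and 29 with 0.048, and quantile normalization 20 and 30 with 0.043. The filter on the higher library gave a median of 0.66 and 4 lower, and calls outside the comparison 15 higher. For 60% over 10% fat diet in sham hearts, a pseudocount of 5 gave 3 and 28 (median -0.43), the filter 3 and 42 (-0.88), centring 20 and 24 (-0.072), quantile normalization 18 and 25 (-0.076) and calls outside the comparison 1 and 16 (-0.42). In TAC hearts these counts were 9 and 11 with a pseudocount of 5, 10 and 9 with the filter and 4 and 9 with calls outside the comparison; the balance of 23 and 31 turned to 31 and 23 with centring and 27 and 25 with quantile normalization. For the difference between diets a pseudocount of 5 gave 43 and 11, the filter 24 and 4, centring 46 and 36 (median 0.099) and quantile normalization 47 and 36 (0.13). The median level was 11 with peak signal, and 10.3 in regions called in 2 or more libraries; in these, 33.9% had a CpG island and 15.3% a tRNA gene. Among regions whose peak reached the all-region median, 16.3% were called in sham hearts on 60% fat diet, and 51.3% in TAC and 70.0% in sham hearts on 10% fat diet. Beyond 10 kb from protein-coding genes, the tRNA share was 6.50% in regions with no gene and 10.96% in regions with a gene. With calls outside the comparison the shares fell along with the number of regions: 8.51% were lower for TAC over sham on 10% fat diet (16.9% in all 237), 7.89% higher on 60% fat diet (16.5%) and 11.6% lower on 60% fat diet in sham hearts (28.7%). The causes were not tested. Counting 1 region per locus, chosen after seeing the data, kept each result within these limits. The depth, a median of 7.89 to 14.2 fragments per region, limits single ratios.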

Other observations

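The share of regions with no gene differed along the genome. It was 12.0% of the regions of chromosome 12 (15 of 125) and 10.8% of chromosome 13 (15 of 139), against 1.45% of chromosome 19 (2 of 138) and 2.90% of chromosome 7 (9 of 310). Regions with no gene also stood farther apart, with a median gap to the next region of 74111 bp, against 49978 bp for regions with a gene, and 30 of 237 (12.7%) had another region within 1 kb, against 15.3%.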
